A study of Drosophila melanogaster with 3 samples.

Results

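A set of 10 genes that drive or restrain the cell cycle was examined in a map of the chromatin protein lilliputian (lilli) in Drosophila melanogaster embryos. The 10 genes were named by symbol: stg, CycA, CycB, CycE, Cdk1, Cdk2, dap, fzr, E2f1 and Rbf, out of 13945 annotated protein-coding genes on the 6 chromosome arms. Their peaks were those with a summit in the gene body or within 500 bp of any of its annotated transcription start sites. The material was chromatin of whole embryos of both sexes, collected from 0 to 24 h after laying, from a transgenic line in which lilli carries eGFP at its C terminus, precipitated through the GFP tag. The 3 biological replicates form a single group with no second condition, so every value below describes where peaks lie and how the replicates rank them. The files hold peaks and not reads, so sequencing depth is unknown. No mock library and no chromatin of flies without the fusion was analysed here, and signal from open chromatin was not separated. Whole embryos mix many cell types and ages, and a peak present in few cells or at 1 stage may be missing from the lists.

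Lilli belongs to the AF4/FMR2 family and is a scaffold of the super elongation complex, which helps RNA polymerase II leave its paused state near a promoter. The early fly embryo divides by rapid maternal cycles with no gap phases. Later, zygotic transcription sets the pace: stg controls entry into mitosis, CycE with Cdk2 drives S phase, dap and Rbf hold cells back, and E2f1 switches on the S-phase genes. The mitotic cyclins carry the cell through mitosis with Cdk1 and are then destroyed through the anaphase-promoting complex, which fzr activates from late mitosis into G1.

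Of the 10 genes, 9 had a peak of the authors' "optimal" list at a promoter, Rbf being the exception. Across all protein-coding genes the share was 31.3%. The optimal list comes from the authors' reproducibility analysis, but not every peak in it was among the strongest of each replicate. A peak of any strength in the pooled list of 30000 lay at a promoter of all 10, against 55% of all genes. By the authors' signal value, which ranks peaks within 1 list, the strongest promoter peaks of the 10 genes ran from rank 2040 (Cdk1) to rank 8766 (Rbf), and the optimal list ends at rank 6970. Their median rank was 4692.5, against 20926 over all protein-coding genes when genes with no promoter peak are placed last. Over the protein-coding genes with a pooled promoter peak, as all 10 have, the median was 5738. Over those with an optimal promoter peak, as 9 of the 10 have, it was 2651. Of these 9 only Cdk1, fzr and CycB ranked above that value. The count of 9 depended on strength and on the replicates. With the stronger 3485 optimal peaks it was 4 (CycB, CycE, Cdk1 and fzr), where the share of all genes was 19.2%. With peaks required among the strongest 6970 of both other replicates it was 6 without replicate 1, 5 without replicate 2 and 5 without replicate 3, against 25.5%, 24.3% and 25.3% of all genes. Longer genes and genes with several start sites have a promoter peak more often: the share was 41.7% in genes of 2839 to 6455 bp and 42.2% in longer ones, where 8 of the 10 genes fall (all but Cdk1 and Cdk2). It was 25% in genes with 1 start site, 45.9% in genes with 2 or 3 (stg, CycB, CycE and fzr) and 70.7% in genes with over 3 (E2f1). The 10 genes have 20 start sites in all, from 1 (CycA, Cdk1, Cdk2, dap and Rbf) to 5 (E2f1), and 9 of the 20 had an optimal summit within 500 bp. A share over all start sites is not given here, and the shares above are per gene.

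Replicates taken singly gave fewer of the genes. Among the 6970 strongest peaks of a replicate, a promoter peak was present at 7 genes in replicate 1, 6 in replicate 2 and 7 in replicate 3, where 30.5%, 31.7% and 30.1% of all genes had one. All 3 replicates held such a peak at stg, CycB and Cdk1, that is 3 genes, against 24.6% of all genes. Without replicate 1 the count was 5, CycE and Cdk2 being added, and with windows of 1000 bp it was 6. The share of all genes is not given here for either setting. CycE, Cdk2, dap and E2f1 had one in 2 replicates and CycA, fzr and Rbf in 1. For CycE and fzr the missing replicates did hold a strong peak, with its summit outside the promoter window, as described below.

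**Figure D1:**
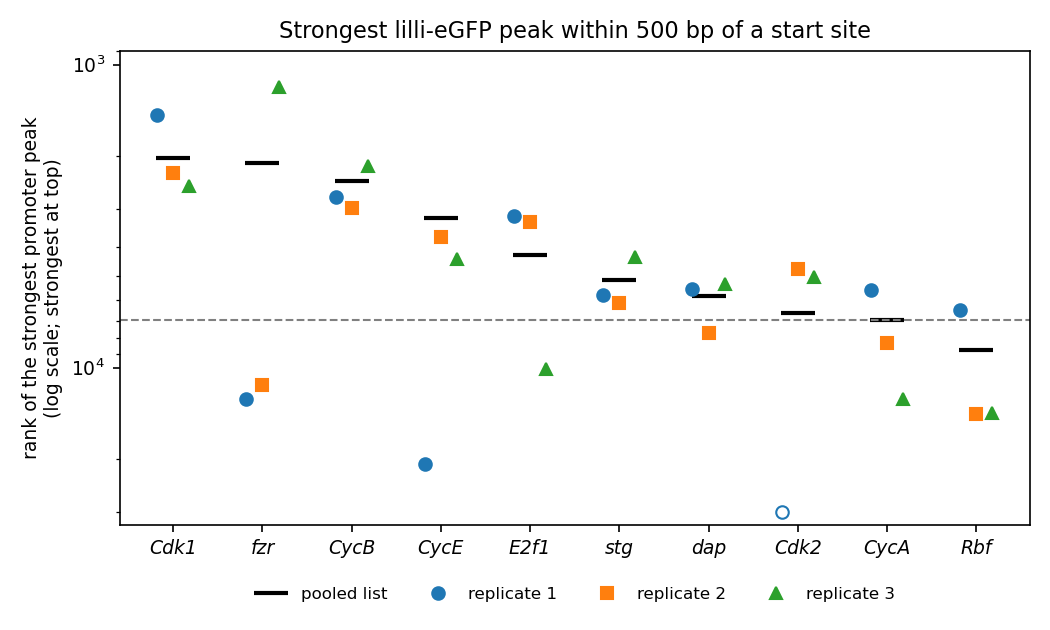
Rank (log axis, strongest at the top) of the strongest peak within 500 bp of a start site of each gene, in the pooled list (black bars) and in replicates 1 (circles), 2 (squares) and 3 (triangles). The dashed line is rank 6970, the end of the optimal list, and the open circle for Cdk2 marks that replicate 1 held no peak in that window among 30000. Cdk1, CycB and stg lie above the line in every replicate. The fzr symbols, from 1183 in replicate 3 to 12711 in replicate 1, are different peaks. The pooled fzr peak itself ranked 2512 and 3625 in replicates 1 and 2, with summits just outside the window.

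Together the genes carried 64 pooled peaks, of which 14 were optimal. Of the 14, 9 were at promoters and 5 were not, and 7 had a summit within 100 bp among the strongest peaks of every replicate, against 63.5% of all 6970 optimal peaks. An optimal peak in the gene or at its promoter was present at the same 9 genes, where 35.8% of all genes had one. The gene body alone held one in 5 genes, stg, CycE, dap, fzr and E2f1. The share of all genes with one in the gene body alone is not given here.

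Among the genes of mitotic entry, the strongest promoter peak was that of Cdk1, the catalytic subunit of the mitotic kinase. The Cdk1 gene (FBgn0004106, 2L, 10384739 to 10386262, minus strand) is 1524 bp long. Its peak covered 10386288 to 10386723, with a pooled signal of 297 and rank 2040. The rank was 1470 in replicate 1, 2271 in replicate 2 and 2524 in replicate 3, and all 3 values are within the strongest 6970. A higher-ranked promoter peak was found at 13% of protein-coding genes. The summit was 244 bp upstream of the Cdk1 start and 156 bp upstream of the start of mRpS7, a mitochondrial ribosomal protein gene on the other strand. Those starts are 400 bp apart, so the peak counts for both genes and the lists cannot assign it to one of them.

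The stretch under the Cdk1 summit was the most AT-rich of the promoter summits, with 19.6% GC in 51 bp. All sequences printed here are from dm6 as held by RefSeq, 50 bp either side of a summit unless stated, read on the strand of the gene and without annotated UTR bases. The Cdk1 sequence is shown for its AT content, with capitals marking a run of A and T alone, 10 bases long, which is 1 of 2 longest runs of equal length. It covers chr2L:10386456-10386556, minus strand.
Cdk1: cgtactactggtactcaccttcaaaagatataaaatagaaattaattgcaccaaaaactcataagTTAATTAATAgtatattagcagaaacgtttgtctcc

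String (stg) is the Cdc25 phosphatase that activates Cdk1 and whose transcription times the later embryonic mitoses. The gene (FBgn0003525) spans 29251826 to 29255800 on 3R, minus strand. Its only optimal peak, from 29255010 to 29255445, had a signal of 147 and rank 5122 in the pooled list. It ranked 5752, 6104 and 4321 in replicates 1, 2 and 3, with summits 85, 101 and 96 bp downstream of the start of transcript stg-RA. The pooled summit was 97 bp downstream of that start, in 5' UTR. All 3 replicates thus held the stg peak, in the weaker part of their strongest peaks. The other start site, of stg-RB (29255800), had no pooled summit within 500 bp, although the edge of the optimal peak, at 29255445, is within that distance. The other 2 stg peaks, in coding sequence and in an intron, were lower-ranked (14235 and 23098).

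CycA encodes cyclin A, a cyclin required for the later embryonic mitoses. Its gene (FBgn0000404, 3L, 11826719 to 11833578, minus strand) had the weakest optimal promoter peak of the 9, from 11833365 to 11833800 with a signal of 112 and rank 6945, and 31.3% of protein-coding genes had a higher-ranked one. The rank was 5559 in replicate 1, 8325 in replicate 2 and 12713 in replicate 3. Only replicate 1 thus held it among its strongest peaks. The pooled summit was 5 bp upstream of the start. In this stretch the DNA replication-related element (DRE), the word TATCGATA bound by the promoter factor Dref, had its centre 2 bp upstream of the summit and 8 bp upstream of the start. The stretch from chr3L:11833579-11833633, minus strand, ends just before the start site, and capitals mark the DRE.
CycA: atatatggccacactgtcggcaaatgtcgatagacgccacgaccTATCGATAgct

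CycE and its partner Cdk2 form the kinase that starts S phase. Cdk2 (FBgn0004107, 3R, 20735623 to 20738414, plus strand) has 1 start site, and its peak from 20735342 to 20735777 had a signal of 117 and rank 6590. The rank was 4743 in replicate 2 and 5023 in replicate 3. Replicate 1 held no peak within 500 bp of the Cdk2 start among 30000, and the replicates therefore differ on whether this gene is marked at all. The summit was 63 bp upstream of the start. The microRNA gene mir-995, on the same strand and inside the Cdk2 gene, starts 300 bp further downstream. The summit lay 363 bp upstream of that start. The starts of 2 more annotated noncoding entries, also inside the Cdk2 gene, lay 379 and 417 bp from the summit. None of these annotated starts is shown here to be a separate promoter. Cdk2 was the other gene with a DRE near its summit, centred 6 bp downstream of the summit and 58 bp upstream of the start, shown in capitals in chr3R:20735510-20735610, plus strand.
Cdk2: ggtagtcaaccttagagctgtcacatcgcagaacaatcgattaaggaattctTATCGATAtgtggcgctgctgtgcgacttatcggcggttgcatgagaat

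The CycE gene (FBgn0010382, 2L, 15727581 to 15748150, minus strand) is 20570 bp long and has 3 start sites. It carried a pair of neighbouring optimal peaks, and neither was at the most upstream start. The first, from 15746918 to 15747101, had a signal of 215 and rank 3217, with its summit 407 bp upstream of the middle start, that of transcripts CycE-RC, CycE-RD and CycE-RF. The second, from 15747047 to 15747482, had a signal of 230 and rank 2943, with its summit 655 bp upstream of that start, just outside the promoter window. Both summits lie in an intron of the transcripts from the upstream start. Replicate 2 had separate summits 446 and 682 bp upstream (ranks 3696 and 3410), replicate 3 had them 419 and 645 bp upstream (ranks 4380 and 5619), and replicate 1 had a single summit between them, 605 bp upstream with rank 1987. All 3 replicates thus held strong signal here, and it is the position of 1 summit that leaves replicate 1 without a strong promoter peak of CycE. Its best peak in the window was at another start, at rank 20839. The start of CycE-RA and CycE-RE had a pooled peak at rank 22995, and the most downstream start, of CycE-RB, had none. That weak peak is shared with the noncoding gene asRNA:CR44866 on the other strand, whose start lay 19 bp from the summit. The sequence at the first summit (chr2L:15746967-15747067, minus strand) and at the second (chr2L:15747195-15747335, minus strand, 70 bp either side) is shown with capitals on the longest run of A and T within the window, 13 and 18 bases. The run at the second summit reaches the window edge, so its full length is not given. GC in 51 bp was 27.5% and 29.4%.
CycE, first summit: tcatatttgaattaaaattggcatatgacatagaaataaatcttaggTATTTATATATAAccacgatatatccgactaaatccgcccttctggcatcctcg
CycE, second summit: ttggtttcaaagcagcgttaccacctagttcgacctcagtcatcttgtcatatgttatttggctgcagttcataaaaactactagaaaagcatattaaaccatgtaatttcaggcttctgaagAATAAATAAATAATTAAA

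**Figure D2:**
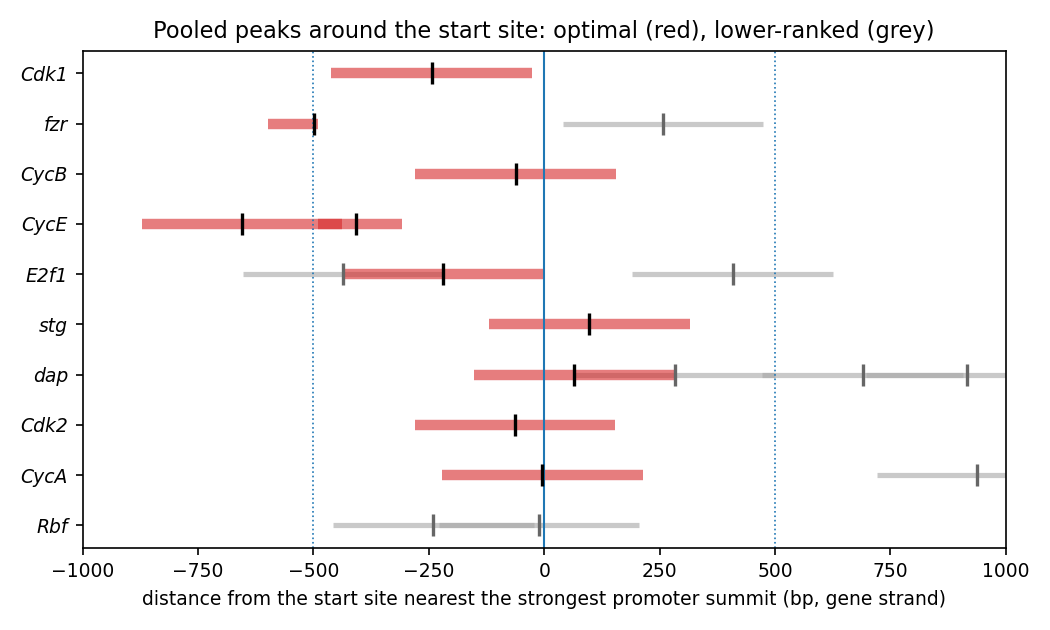
Pooled peaks within 1000 bp of the start site nearest the strongest promoter summit of each gene, in bp along the gene, with upstream to the left. Red bars are optimal peaks, grey bars lower-ranked ones, ticks their summits, and dotted lines the 500 bp window. The stg and dap summits lie downstream of the start (97 and 65 bp), those of the other genes upstream, and fzr sits at the edge of the window.

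E2f1 encodes the activating E2F factor of S-phase genes, and it carried the most peaks of the 10 genes. The gene (FBgn0011766, 3R, 21620304 to 21660871, minus strand) is 40568 bp long with 5 start sites. There were 30 pooled peaks, 4 of them optimal. Among the 356 protein-coding genes of 30 to 50 kb, the median was 7 pooled and 1 optimal peaks, 3.09% had at least as many pooled peaks and 19.9% at least as many optimal ones. The promoter peak lay from 21633074 to 21633509 with a signal of 171 and rank 4263. Its summit was 219 bp upstream of the start of E2f1-RA and E2f1-RE, in an intron of the longer transcripts and in an exon of the antisense RNA gene asRNA:CR46055. The rank was 3164 in replicate 1 and 3317 in replicate 2. In replicate 3 the summit within 100 bp ranked 14406, far below the others. The other 4 starts, of E2f1-RD, E2f1-RC, E2f1-RB and E2f1-RF, had only lower-ranked peaks (19594, 18141, 23649 and 14709). Noncoding genes on the other strand share 2 of these. The start of asRNA:CR46055 lay 40 bp from the summit at rank 19594. That of lncRNA:CR46056 lay 276 bp from the summit at rank 18141.

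The strongest E2f1 peak was inside the gene, away from any start. It covered 21627878 to 21628081 with a signal of 282 and rank 2193. It ranked 2248, 1948 and 3620 in replicates 1, 2 and 3, and its summit lay in an intron 4738 bp downstream of the nearest start. A second internal peak, from 21626481 to 21626916 with rank 5485, had its summit in 5' UTR and was in all 3 replicates (ranks 6532, 5796 and 5156). Another, from 21641532 to 21641967 with rank 5012, lay in an intron 3256 bp upstream of the nearest start. It ranked 3402 in replicate 1 and 13414 in replicate 2, where a strong summit (rank 5378) lay just past the matching distance, 110 bp away. No summit was within 100 bp in replicate 3. Of the 4 optimal peaks of E2f1, the 2 nearest the 3' end were thus among the strongest of every replicate, and replicate 3 held neither the promoter peak nor the other intron peak among its strongest.

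The sequence at the E2f1 promoter summit (chr3R:21633242-21633342, minus strand) had 23.5% GC in 51 bp. Capitals mark its longest run of A and T within the printed window, 15 bases. That run starts at the window edge and goes on beyond it. At the strongest intron summit (chr3R:21627885-21628025, minus strand, 70 bp either side) capitals mark the word CAGGTAG, the site of the early embryonic activator Zelda, centred 66 bp upstream of the summit. It was the only Zelda word within 100 bp of the 14 optimal summits. At promoters that word is rare, with 0.704% of all optimal promoter peaks and 1.08% of windows of that length at all start sites holding one. The share among optimal peaks away from promoters, such as this one, is not given here.
E2f1, promoter summit: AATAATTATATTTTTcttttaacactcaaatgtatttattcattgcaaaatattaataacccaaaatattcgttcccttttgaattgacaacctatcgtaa
E2f1, intron summit: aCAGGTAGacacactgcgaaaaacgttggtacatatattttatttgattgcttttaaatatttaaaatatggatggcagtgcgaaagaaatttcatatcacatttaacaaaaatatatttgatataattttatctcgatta

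**Figure D3:**
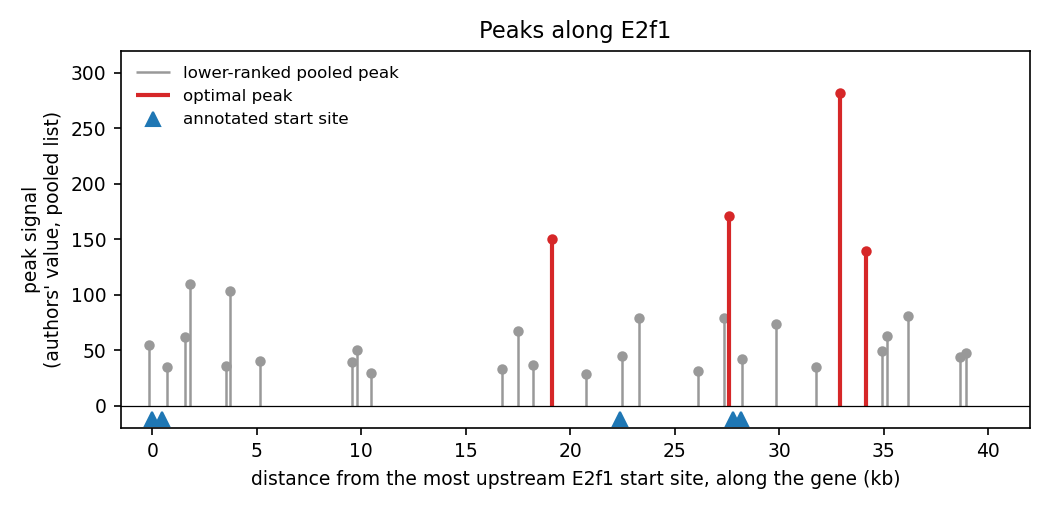
Signal of the 30 pooled peaks along E2f1, by distance in kb from its most upstream start site, with optimal peaks in red, lower-ranked peaks in grey and annotated start sites as blue triangles. The signal is the authors' value in the pooled list. The highest peak (282) lies beyond the last start site, and the most upstream starts carry only lower-ranked peaks.

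Rbf, the fly retinoblastoma protein that holds E2f1 in check, was the 1 gene with no optimal peak. The gene (FBgn0015799, X, 797090 to 801479, minus strand) had a lower-ranked pooled peak from 801273 to 801708, with its summit 12 bp upstream of the start, a signal of 90 and rank 8766. It ranked 6465, 14260 and 14129 in replicates 1, 2 and 3. Replicate 1 alone thus held it among its strongest peaks. A further lower-ranked peak, 241 bp upstream of the start, had rank 16069.

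For fzr, the Cdh1-type activator of the anaphase-promoting complex, the peak counted as a promoter peak lay at the very edge of the window. The gene (FBgn0262699, X, 4667290 to 4679537, minus strand) has 2 start sites. The peak, from 4680028 to 4680136 with a signal of 289 and rank 2114, had its summit 499 bp upstream of the start of fzr-RA, inside the 3' UTR of the neighbouring Pp2C1 gene on the same strand. It ranked 2512, 3625 and 1183 in replicates 1, 2 and 3, so all of them held it among their strongest peaks. The summits there were 501, 525 and 485 bp upstream of the fzr start, and the first 2 fell outside the window. With a window of 250 bp neither fzr nor CycE, whose summit was the next farthest at 407 bp, had a promoter peak. The count of genes was then 7, against a share of 26% of all genes. Nearer the fzr-RA start, 257 bp downstream, lay a lower-ranked peak (rank 9824), and at the fzr-RB start another (rank 20942). A further optimal peak was in an intron, 4606 bp downstream of the nearest start, with rank 6928. It ranked 14514, 6027 and 10031 in replicates 1, 2 and 3 within 100 bp. Replicate 3 also held a strong summit (rank 5167) just past that distance, 111 bp away.

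CycB encodes cyclin B, the second mitotic cyclin. The gene (FBgn0000405, 2R, 22803521 to 22806948, minus strand) had 1 pooled peak, from 22806792 to 22807227, and all 3 replicates held it. Its signal was 265 and its rank 2423, with ranks of 2743, 2970 and 2161 in replicates 1, 2 and 3. The summit lay 62 bp upstream of the most upstream start, that of CycB-RA and CycB-RE, and 81, 66 and 59 bp upstream in the replicates. The starts of CycB-RB and CycB-RC (22806499 and 22806303) had no pooled summit within 500 bp. The edge of the same peak, at 22806792, is within 500 bp of both. GC at the summit was 51%, the highest of the promoter summits.

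Dacapo (dap) is the inhibitor of CycE and Cdk2, a fly counterpart of the p21 and p27 family, which stops the cycle when embryonic cells differentiate. The gene (FBgn0010316, 2R, 9712321 to 9716256, plus strand) had an optimal peak from 9712168 to 9712603 with a signal of 132 and rank 5803. It ranked 5492, 7700 and 5320 in replicates 1, 2 and 3, so replicate 2 fell short of the strongest 6970. The summit lay 65 bp downstream of the start, in 5' UTR. Another 4 lower-ranked peaks followed in the gene, the nearest 283 bp downstream of the start (rank 12939).

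Strong peaks were found just beyond the ends of 3 of the genes and are not counted for them. A peak at rank 72, with a signal of 1651, lay 569 bp beyond the 3' end of CycB, between CycB and the 3' end of blw, with no start site within 500 bp. It ranked 74, 75 and 70 in replicates 1, 2 and 3, far above the CycB promoter peak. A peak at rank 84 lay 261 bp beyond the 3' end of fzr, 329 bp upstream of the start of CG3009, with ranks of 94, 82 and 66. A peak at rank 898 lay 919 bp beyond the 3' end of E2f1, 64 bp upstream of a start of InR, the insulin receptor gene, with ranks of 729, 861 and 965. The gaps around stg, CycA, CycE, Cdk1, Cdk2, dap and Rbf, up to the next protein-coding gene on each side, held no other optimal peak.

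None of the 6 sequence words searched was at more than 3 of the 9 optimal promoter peaks within 100 bp of the summit, although TATAAA was at 8 of them within 250 bp. The share of all optimal promoter peaks was not counted for that wider window, so the 8 cannot be set against it. Each word was searched on both strands, with the shorter window used below, and a match describes letters, not a bound site. The DRE was at 2 of the 9 optimal promoter peaks (CycA and Cdk2), against 9.89% of all 3691 optimal promoter peaks and 6.45% of windows of that length at 19252 start sites. Over the 365 optimal promoter peaks with a DRE, the word was within 10 bp of the summit in 11.2%, and the median distance was 44.5 bp. The core of the Ohler 1 motif (GGTCACAC) was at none of the 9 (5.64% of optimal promoter peaks, 5.68% of start sites). The E2F words (TTTCCCGC, TTTGGCGC, TTTCGCGC and TTTGCCGC) were at none either, with 4.33% and 4.77%. GAGAG, the short form of the GAGA factor site, was at 2 (dap, with overlapping matches, and fzr), against 20.1% and 25%, and TATAAA at 3 (CycE, Cdk1 and E2f1), against 32.5% and 26.9%. Of the 5 optimal peaks away from promoters, 1 held GAGAG and 1 TATAAA, both counts from E2f1. GC content at the 9 promoter summits ran from 19.6% to 51%, with a median of 43.1%. Over all optimal promoter peaks the median was 37.3%, with quartiles of 29.4% and 45.1%. The summits of Cdk1, E2f1 and CycE were below the lower quartile and those of CycA, CycB and dap above the upper one. Of the 9 summits, 7 were upstream of the start of their own gene. Of all optimal promoter peaks, 78.9% were upstream of the nearest protein-coding start of any gene, with a median 80 bp upstream. The 2 measures differ where a peak has starts of 2 genes nearby, as at Cdk1.

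The wider cell cycle machinery was also marked at promoters, with 47 of 86 other genes in 8 lists holding an optimal promoter peak, against the 31.3% of all protein-coding genes given above. In replicates 1, 2 and 3 the counts were 46, 53 and 50, against 30.5%, 31.7% and 30.1% of all genes. In all 3 replicates 37 genes had one, against 24.6% of all genes. With the stronger 3485 optimal peaks the count was 23, against 19.2% of all genes. Of the 39 genes without an optimal promoter peak, 20 had a lower-ranked one and 19 had none in the pooled list. Of those 19, a promoter peak was among the strongest of at least 1 replicate at 4. Summits of 44 of the 47 lay upstream of the start of their own gene, and a share over all genes by that measure is not given here.

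Of 9 genes of E2F and the dREAM complex 6 were marked, led by Dp, the dimer partner of E2F proteins (rank 458, signal 703), and Rbf2, the second retinoblastoma protein (rank 834, signal 511). Both ranked above every promoter peak of the 10 genes. The other 4 ranked lower, namely Caf1-55 (4370), mip130 (6214), mip40 (6274) and E2f2 (6336), and these were named after their values were seen. Of 11 checkpoint genes 9 were marked, led by the spindle checkpoint genes Bub3 (rank 1184) and BubR1 (rank 1650). Of 21 replication genes 11 were marked, led by dpa, a subunit of the MCM helicase (rank 509), and RnrS, a subunit of ribonucleotide reductase (rank 1068). Of 14 genes of the anaphase-promoting complex and its partners 7 were marked, led by Cdc16 (rank 595) and lmgA (rank 2077). Each of the 2 leading genes of these 4 lists had a promoter peak among the strongest of all 3 replicates. The marked shares were 66.7% (E2F and dREAM), 81.8% (checkpoints), 52.4% (replication) and 50% (anaphase-promoting complex), against 31.3% of all protein-coding genes.

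The remaining lists hold regulators of the cyclin-dependent kinases and of protein destruction. Their marked shares were 40% (cyclins and kinases), 54.5% (Cdk phosphorylation and mitotic kinases), 50% (SCF) and 25% (early embryonic cycles). The first and the last of these small lists are near the 31.3% of all protein-coding genes. Of 10 further cyclin and kinase genes 4 were marked, led by Cdk7, the kinase that activates other Cdks (rank 2022), and Cdk4, the partner of cyclin D (rank 2585). Of 11 genes of Cdk phosphorylation and mitotic kinases 6 were marked, led by aurA (rank 1431) and mts, the catalytic subunit of protein phosphatase 2A (rank 2119). Of 6 genes of the SCF ubiquitin ligase, Cul1 (rank 3050), ago (rank 3494) and slmb (rank 4547) were marked. SkpA, Skp2 and Roc1a were not, with lower-ranked peaks at SkpA (rank 24509) and Roc1a (rank 11635). Of 4 genes of the early embryonic cycles, plu was marked (rank 3575), while png, gnu and Z600 had no pooled promoter peak.

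**Figure D4:**
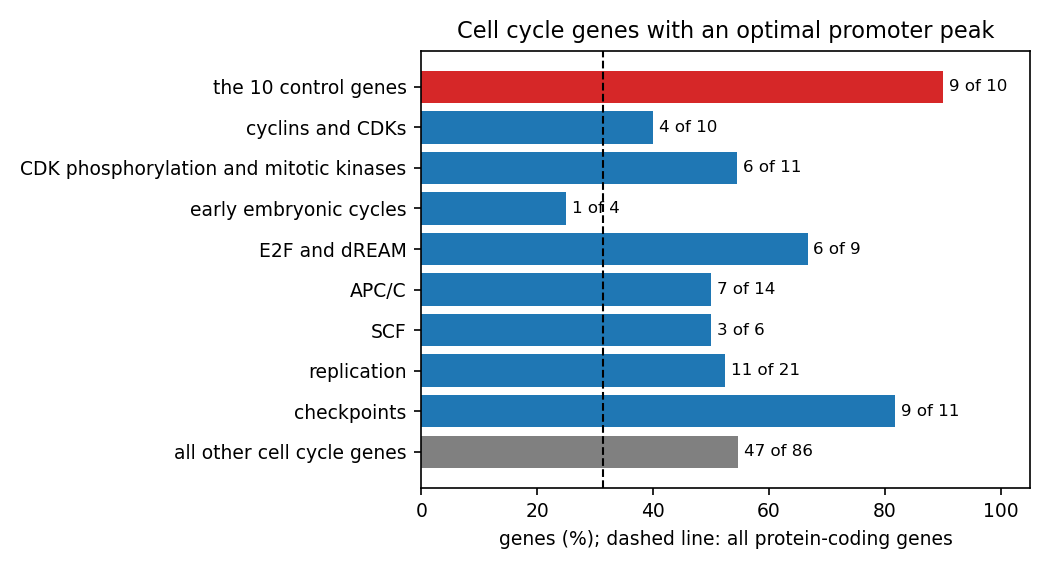
Share of genes (%) with an optimal promoter peak among the 10 control genes (red), 8 lists of other cell cycle genes (blue) and all 86 of the latter (grey), with counts beside the bars. The dashed line is the share of all protein-coding genes, 31.3%. The early embryonic list (1 of 4) lies below the line and the other lists above it.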

How the data were processed

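Chromatin immunoprecipitation with sequencing was analysed in 3 biological replicates of 1 group, numbered as in the labels. Sonication gave a size range of 200 to 800 bp, per the labels. According to the text records deposited beside the lists, a replicate list (peaks plus background) derives from that replicate's alignment and 1 more file, read here as the control because control-normalized tracks derive from it too. The pooled list derives from the 3 alignments with that file, and irreproducible discovery rate analysis of the 4 lists gave the optimal peaks. The name of the aligner or caller is not given in the sources used here. A peak has the authors' deposited signal value, comparable within 1 list, and a deposited -log10 q-value, which was not used. The optimal peaks were found to be the 6970 pooled peaks of highest signal, and lower-ranked means the other 23030. The 30000 peaks of each list include background by design. The 5 dm3 lists were not analysed here.

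Coordinates are 1-based on dm6 with the Ensembl release 115 annotation, and every peak end lay within its arm. Peaks were ranked by signal, and the strongest peaks of a replicate are its first 6970. A promoter peak has its summit within 500 bp of any start site of the gene, and peaks of 2 lists match with summits within 100 bp. Genes and lists are described by counts beside the share of all protein-coding genes, without tests. The 10 genes, the lists, the words and the alternatives were chosen with earlier results of these data known. Named genes are the 10, genes sharing their promoter peaks, the 2 strongest of each list, and all genes of lists of up to 6. Genes with an E2F word or DRE, genes beside the 10, and Pp2C1 fall outside this rule and were chosen after seeing their values. The gene asRNA:CR46055 shares a lower-ranked E2f1 promoter peak, and its exon under the optimal summit was named after seeing the values. Of 86 listed names, 2 matched by an older symbol. Alternatives covered the promoter window, the number of peaks, peak overlap, summit distance, peak middle, word windows and each replicate left out. The counting steps were checked on planted peaks. Tools were Python 3.11.15, numpy 2.4.6, pandas 2.3.3 and matplotlib 3.10.9.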

Additional observations from a re-analysis of the deposited data

How the results depend on the processing

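The count of the 10 genes with an optimal promoter peak (9) was 7 with windows of 250 bp, 9 with 1000 bp and 9 with any overlap. The shares of all genes were 26%, 35% and 33.1%. The count moved to 4 with the stronger 3485 optimal peaks (19.2% of all genes). It ran from 5 to 6 with a replicate left out (24.3% to 25.5% of all genes). Of the other cell cycle genes, 41 to 53 of 86 were marked under other windows or overlap, 23 with those 3485, and 32 to 36 with a replicate left out. The same shares of all genes apply to these settings. The count marked in every replicate (3) was 6 with windows of 1000 bp, 2 with 250 bp or with 3485 peaks per replicate, and 4 to 5 with a replicate left out. For this count the share of all genes was 24.6% at the main setting and is not given here for the alternatives. Optimal peaks in the gene or at its promoter (9 genes) fell to 5 with the gene body alone and to 5 with the stronger 3485, and were 6 to 7 with a replicate left out. The share of all genes was 35.8% at the main setting and is not given here for these alternatives. Optimal peaks of the 10 genes found in every replicate (7) were 7 within 50 bp and 8 within 250 bp. Leaving out a replicate here means requiring the peak in both others, which leaves 4828 to 5124 optimal peaks and is also a stricter set. No paired analysis was possible because there is 1 group. Depth is unknown, so a missing peak was not detectable in these lists and is not shown to be absent.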

Other observations

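The E2F words were at 6 of the 11 promoter peaks of replication genes with an optimal one, those of Orc1, Orc3, dup, dpa, Cdc7 and RnrS, and at 0 of the 36 such peaks of the other 7 lists. All optimal promoter peaks held one in 4.33% of cases. The split by list was noticed after the words had been counted, it was not tested, and the genes were named after their values were seen. Of the 47 peaks, 8 held the DRE (Cdk7, mts, Rbf2, slmb, PCNA, p53, BubR1 and Bub3), or 17%, against 9.89% of all optimal promoter peaks. TATAAA was at 23 of the 47 (48.9%, against 32.5%) and GAGAG at 4 (8.51%, against 20.1%). The Ohler 1 core was at 3 (6.38%, against 5.64%) and the Zelda word at 0 (against 0.704%). None of these differences was tested.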
